A study of Homo sapiens with 6 samples.

Results

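The SVA_D elements that lie inside protein-coding genes on the strand opposite to their host were measured in HEK293T cells with and without an activating guide RNA against SVA_D. A copy was taken when it lay on chromosomes 1 to 22 or X, overlapped at least 1 protein-coding gene body and had every overlapped gene on the other strand. This held for 495 of the 1546 copies counted (32.0%). Of the remaining copies, 179 lay on the same strand as their host, 768 overlapped no protein-coding gene, 6 had hosts on both strands and 98 lay outside those chromosomes. Orientation came from the deposited coordinates alone, with no use of counts.

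SVA elements are composite retrotransposons found in hominids. A typical copy starts with a hexamer repeat, followed by an Alu-like region, a GC-rich tandem repeat, a retrovirus-derived region and an A-rich end, and its mobilisation depends on LINE-1 proteins. The KRAB zinc finger proteins ZNF91 and ZNF611 bind SVA elements and recruit the corepressor TRIM28, which keeps the elements silent in many cells. Inside a gene, an element on the opposite strand has its own promoter region and polyadenylation signal facing away from the direction of host transcription.

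HEK293T is a transformed human embryonic kidney line. All 6 libraries came from cells that had received dCas9-VP64, a Cas9 protein that cannot cut joined to an activator, and rtTA, the reverse tetracycline transactivator, and all titles name SunTag, a peptide array used to recruit activators. In the guide group (3 libraries, genotype label CRISPRa) the cells had also received the SVA_D guide RNA, and in the no-guide group (3 libraries, genotype label WT) they had not. The guide sequence, the time after transfection and the use of separate cultures are not given in the labels, so the spread behind each p-value is that between libraries and may be technical.

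The libraries held 16557854 to 22651168 gene counts and 2608 to 4553 SVA_D copy counts, and 3 counts corresponded to 0.132 to 0.181 counts per 1000000 gene counts (CPM). Replicate 3 of both groups carries another style of alignment name in the file headers, so some values are also given for replicates 1 and 2 alone. All 10 markers of the line (such as KRT8, KRT18 and VIM) were above 1 CPM in the mean, and 1 of 13 markers of blood, liver, fibroblast or endothelial cells was (COL1A1), with a summed level of 3.17 to 20.05 CPM in guide and 3.18 to 20.04 CPM in no-guide libraries. Counting ignored strand and covered introns, so counts at a copy can come from the copy's own transcript, from unspliced RNA of its host or from similar copies elsewhere.

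Antisense placement was the more common one: 73.4% of the 674 copies with hosts on 1 strand only were antisense. The 495 copies lay in 455 host genes, of which 403 held 1 copy, 44 held 2 and 8 held 3 or more. A copy here is an annotated stretch, and neighbouring stretches in a host may be pieces of the same insertion. GNAQ, which encodes a G protein alpha subunit, held 4, while RC3H2, an RNA-binding ubiquitin ligase gene, and RBL1, a gene of the retinoblastoma family, held 3 each, as did 5 other hosts; these 2 are the shortest of the 7. Only 9 copies overlapped an exon of their host, where just the first listed host was checked for the 19 copies with more than 1. Another 9, counted separately, overlapped an exon of a non-coding gene on their own strand. Antisense copies had a median length of 1541 bases (11 to 2603), against 988 bases for same-strand copies and 1464 bases for copies outside coding genes. Copies of 1500 bases or more made up 53.1% of the antisense copies, 33.0% of the same-strand copies and 46.7% of those outside coding genes.

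SVA_D_dup1360, in an intron of ZNF584, had the highest level among the antisense copies, and the exon of the lincRNA AC012313.1 in GENCODE release 29 covers 2149 bases of it from its first base. Its first 60 bases are shown because they place the start of a near-complete element inside an annotated transcript. They lie at chr19:58406327-58406386 (GRCh38, minus strand), are written 5′ to 3′ on the strand of the copy and are 91.7% C or T.
SVA_D_dup1360: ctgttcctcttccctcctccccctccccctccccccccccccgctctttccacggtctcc
Read pairs were counted at each of their alignments, so similar copies share counts.

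Summed over all 495 copies, antisense SVA_D counts were higher in each library with the guide than in any without it. The guide libraries held 50.5, 51.9 and 54.9 CPM for replicates 1, 2 and 3, and the no-guide libraries held 40.2, 44.3 and 45.2 CPM. The mean was 52.4 ± 2.26 CPM in guide libraries against 43.2 ± 2.7 CPM in the others (SD, n = 3 each), a difference of 0.28 on the log2 scale (two-sided exact permutation test, p = 0.1, the smallest that 3 against 3 libraries allow). The groups did not overlap, and the same-numbered libraries differed by 0.33, 0.23 and 0.28. When library size was taken from all SVA_D counts in place of gene counts, the difference was 0.0029 (exact permutation p = 1.0). Antisense copies thus moved by about as much as SVA_D counts in general, and made up 30.5, 28.9 and 24.97% of all SVA_D counts in the guide libraries and 27.7, 29.4 and 26.8% in the no-guide libraries.

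Same-strand copies were at 42.5 ± 5.71 CPM with the guide against 41.5 ± 5.14 CPM without (SD, n = 3 each), with overlapping groups. The difference between groups was larger for antisense copies than for same-strand copies by 0.25 on the log2 scale, which did not pass the test of the difference (exact permutation test, p = 0.2), and the library values of the ratio overlapped. Within same-numbered libraries the difference was 0.35, 0.15 and 0.24 (exact sign-flip p = 0.25, the smallest that 3 pairs allow). Copies outside coding genes were at 87.5 ± 20.7 CPM with the guide against 63.3 ± 7.51 CPM without. Compared with these, the change of antisense copies was smaller by 0.17 on the log2 scale (difference of log2 ratios -0.17, exact permutation test, p = 0.5). That gap was -0.081 in replicates 1 and 2, -0.35 in replicate 3 and -0.018 without guide replicate 3.

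**Figure D1:**
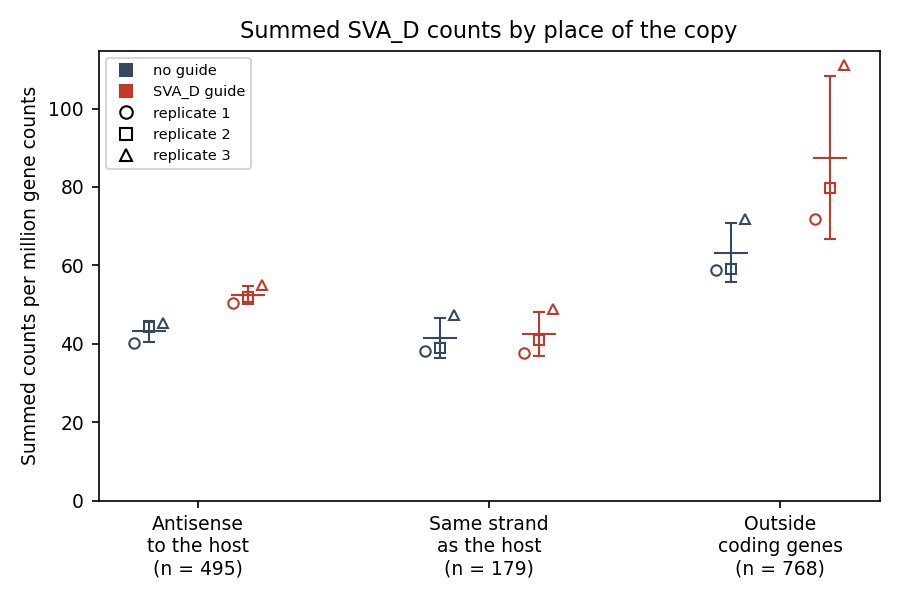
Summed SVA_D counts per 1000000 gene counts (CPM) in each library (symbols, by replicate) for copies antisense to their host, on the host's strand and outside protein-coding genes, with the mean and SD of 3 libraries per group. For antisense copies the guide libraries (50.5 to 54.9) lie above the no-guide libraries (40.2 to 45.2), while the same-strand groups overlap.

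Among antisense copies, 106 (21.4%) had no count in any library. Between 216 and 246 copies had a count in a guide library and between 188 and 207 in a no-guide library. Counts occurred only with the guide at 71 copies and only without it at 41, against 17 and 20 for same-strand copies and 154 and 58 for copies outside coding genes. The mean CPM was higher with the guide at 246 antisense copies and lower at 143. It was higher at 66 and lower at 60 same-strand copies, and higher at 379 and lower at 159 copies outside coding genes. Among the 116 antisense copies with 10 or more counts over all libraries, a minimum set after the counts were seen, 13 were higher in every guide library than in any without the guide and 3 were lower. Over all 311 SVA_D copies with that many counts the shares were 14.5% and 3.22%, so the antisense copies were near the background in both directions.

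The 3 copies lower in every guide library were named after their values were seen. SVA_D_dup90 in CCT3, a chaperonin subunit gene, had 1, 0 and 0 counts with the guide and 6, 3 and 5 without it. SVA_D_dup842 in EIF4EBP2, a gene for a repressor of translation initiation, had 2, 0 and 3 against 4, 5 and 6. SVA_D_dup1307, a fragment of 112 bases in NDUFA13, a gene of mitochondrial complex I, had 1, 0 and 0 against 4, 3 and 5. It overlaps an exon of NDUFA13 and also lies in ENSG00000258674, so its counts may include spliced host RNA, which was not tested. None of the 3 had enough counts for the test.

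In the edgeR quasi-likelihood fit over the whole copy table, 14 antisense copies had enough counts to be tested, and 3 of them were called higher with the guide at an adjusted p under 0.05. Over all tested SVA_D copies 17.5% were called higher (11 of 63). The 3 called antisense copies had at least 12 counts in each guide library and at most 6 in any other. They thus passed the count filter through the guide group, and the share called depends in part on that filter. Without the count filter 3 antisense copies were called higher as well. In edgeR 0 antisense copies were called lower, as were 0% of all tested copies, and 0 were lower at an unadjusted p under 0.05 in edgeR, DESeq2 or limma-voom. The 3 called copies lay in UBTD1, ANKRD11 and RAP1A, all in introns. Together they held 4.52, 3.56 and 4.98 CPM with the guide against 0.132, 0.058 and 0.328 CPM without it.

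SVA_D_dup856 lies in UBTD1, a ubiquitin-domain protein gene, on chromosome 10 from 97527497 to 97529792 (minus strand, 2296 bases, GRCh38). It starts 28573 bases from the host's start and is 28224 bases from the nearest host exon. It had 43, 16 and 47 counts with the guide and 0, 0 and 1 without it. The ratio of CPM was 112 (exact 95% binomial interval 19.7 to 4464), and the log2 fold change was 6.27 ± 0.79 (SE, edgeR adjusted p = 0.000427). This SE was derived from the F statistic of the fit and is narrow beside the binomial interval. Its lowest guide library held 16 counts and its highest no-guide library held 1. The log2 fold change was 7.87 in replicates 1 and 2 and 8.07 without no-guide replicate 3, where the no-guide counts are all 0 and the fitted value depends on the prior count.

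SVA_D_dup1191 lies in ANKRD11, a chromatin regulator gene, on chromosome 16 from 89462044 to 89463693 (plus strand, 1650 bases), 26868 bases from the host's start. Its counts were 33, 31 and 21 with the guide and 1, 1 and 0 without it. The ratio was 44.9 (interval 12.1 to 377), and the log2 fold change was 5.23 ± 0.72 (SE, edgeR adjusted p = 0.000465). Like SVA_D_dup856, it was close to 0 in every no-guide library and passed in all 15 settings in which it was tested. Without no-guide replicate 3 its log2 fold change was 4.62.

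SVA_D_dup76 lies in RAP1A, a gene for a Ras-like small GTPase, on chromosome 1 from 111607039 to 111608899 (minus strand, 1861 bases), 10878 bases from the nearest host exon. It had 18, 12 and 35 counts with the guide and 2, 0 and 6 without it. The groups did not overlap, the ratio was 8.58 (interval 4.11 to 20.7) and the log2 fold change was 3.0 ± 0.69 (SE, edgeR adjusted p = 0.00889). Without guide replicate 3 it did not pass (edgeR adjusted p = 0.0573). The log2 fold change was 3.78 in replicates 1 and 2 and 4.18 without no-guide replicate 3. Bases 177 to 764 of the copy, counted from its 5′ end, are exonic in LINC01160, which runs on the copy's strand. The annotated LINC01160 starts inside the copy, so part of the copy's counts may be those of this lincRNA, whose share was not tested.

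The most abundant antisense copy did not change beyond its spread. SVA_D_dup1360 lies 2729 bases into ZNF584, a KRAB zinc finger gene, on chromosome 19 from 58404233 to 58406386 (minus strand, 2154 bases). It had 217, 150 and 206 counts with the guide and 214, 175 and 274 without it, so the groups overlapped. This corresponded to 9.81 ± 0.697 and 10.8 ± 1.79 CPM (SD, n = 3 each), with a log2 fold change of -0.17 ± 0.14 (SE, edgeR adjusted p = 0.866). The copy lies in AC012313.1, so part of its counts may be those of the lincRNA, whose share was not tested. Without this copy the antisense sum was 42.6 ± 2.47 CPM with the guide against 32.5 ± 1.76 CPM without, a log2 difference of 0.39.

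The other abundant copies overlapped between groups as well. SVA_D_dup870, in MTG1, a mitochondrial GTPase gene, and in the overlapping ENSG00000254536, had 71, 31 and 20 counts with the guide and 60, 51 and 41 without it. SVA_D_dup259, 126 bases from an exon of CRELD1, a gene for a membrane protein with EGF-like domains, had 24, 36 and 54 against 27, 28 and 60. SVA_D_dup1296 in LONP1, the gene of the mitochondrial Lon protease, had 24, 14 and 17 against 22, 34 and 6. In all 3 the spread within a group was as wide as the distance between groups.

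SVA_D_dup159 lies 95 bases from an exon of CENPA, the gene of the centromeric histone H3 variant, and had 12, 7 and 14 counts with the guide against 9, 9 and 31 without it. SVA_D_dup281 in RBM6, an RNA-binding protein gene, had 17, 8 and 22 against 5, 10 and 16 (log2 fold change 0.60 ± 0.50, SE, edgeR adjusted p = 0.866). SVA_D_dup676 in EIF3H, a translation initiation factor subunit gene, had 18, 12 and 15 against 21, 5 and 6, with a log2 fold change of 0.53 that was 1.43 without no-guide replicate 1. These groups overlapped too. SVA_D_dup402 in NEK1, a kinase gene linked to cilia and the DNA damage response, had 12, 12 and 5 against 12, 12 and 2, and here replicates 1 and 2 had the same counts in both groups. The other 3 tested copies had log2 fold changes between -0.24 and -0.057, and their groups overlapped.

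**Figure D2:**
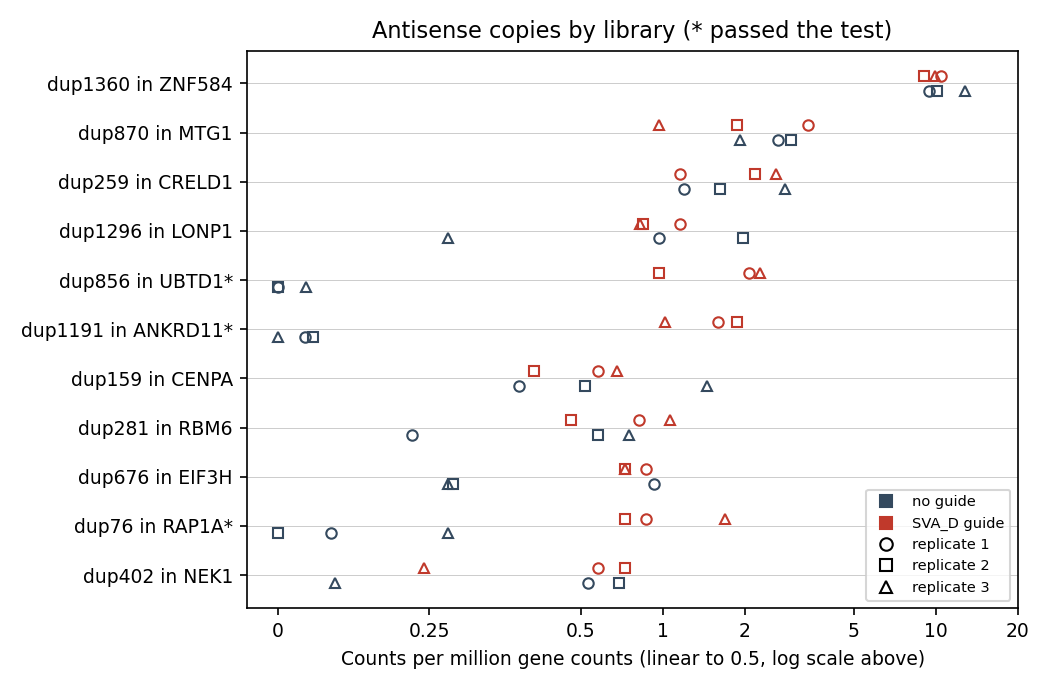
CPM of 11 antisense copies in each of the 6 libraries (symbols by replicate), ordered by mean level, on an axis that is linear up to 0.5 and logarithmic above. The copies in UBTD1, ANKRD11 and RAP1A (asterisks) lie below 0.3 without the guide and above 0.7 with it, while the groups overlap for the others, including the copy in ZNF584 at about 10 CPM.

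A smaller difference in the sum remained when the called copies were left out. Without the called copies, the antisense sum was 46.0, 48.4 and 49.9 CPM with the guide against 40.0, 44.3 and 44.9 CPM without it, a log2 difference of 0.16 with no overlap. Pairs were counted at each of their alignments, so pairs shared with a called copy stay in the sums of the others. How much such pairs add to these sums was not tested. The 481 copies that fell below the count filter, of which 375 had a count, were together at 25.6, 30.4 and 31.1 CPM with the guide against 22.2, 23.7 and 22.8 CPM without it (log2 difference 0.34, no overlap). The 11 tested copies left after the called ones are set aside were at 19.0 ± 1.21 CPM against 20.2 ± 2.16 CPM (SD, n = 3 each), a group that by its choice holds no called copy.

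By length, the groups separated only among the longer copies, although the difference was no smaller in those from 500 to under 1000 bases. The 263 copies of 1500 bases or more were at 35.9 ± 0.784 CPM with the guide against 28.6 ± 1.71 CPM without, and the 99 copies from 1000 to under 1500 bases at 11.9 ± 0.835 and 10.6 ± 0.308 CPM (SD, n = 3 each), with no overlap in either (log2 differences 0.33 and 0.17). The 51 copies from 500 to under 1000 bases were at 2.86 ± 0.850 and 2.25 ± 0.688 CPM and the 82 shorter ones at 1.76 ± 0.116 and 1.89 ± 0.683 CPM, and both overlapped (log2 differences 0.34 and -0.040). Length groups were not tested against each other. Only 18 of the 82 shortest copies had a count in any library.

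Copies were also split into 3 groups of 165 by the level of their host gene, measured as gene CPM per kb of gene body over all 6 libraries (below 0.0757, up to 0.425 and above). In hosts of middle level the sum was 10.05, 11.7 and 11.8 CPM with the guide against 6.05, 6.41 and 6.27 CPM without it, a log2 difference of 0.84. In low hosts it was 9.28, 9.12 and 11.7 CPM against 7.28, 7.45 and 7.54 CPM (log2 difference 0.43), again with no overlap. In high hosts it was 31.2, 31.1 and 31.4 CPM against 26.8, 30.5 and 31.4 CPM (log2 difference 0.080), and the groups overlapped.

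The difference between middle and high hosts, chosen for comparison after the values were seen and given as a description, was 0.76 on the log2 scale, with no overlap between the libraries. It was 0.58 without the called copies and 0.65 without SVA_D_dup1360. Among high hosts, leaving out SVA_D_dup1360 gave 21.4 ± 0.661 CPM in guide libraries against 18.8 ± 1.5 CPM, a log2 difference of 0.19 and no overlap. Same-strand copies split at the same host levels had log2 differences of -0.024 for low and 0.11 for middle hosts, and high hosts were at 19.0 ± 0.773 CPM with the guide against 19.1 ± 1.69 CPM without, with overlapping groups in each.

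**Figure D3:**
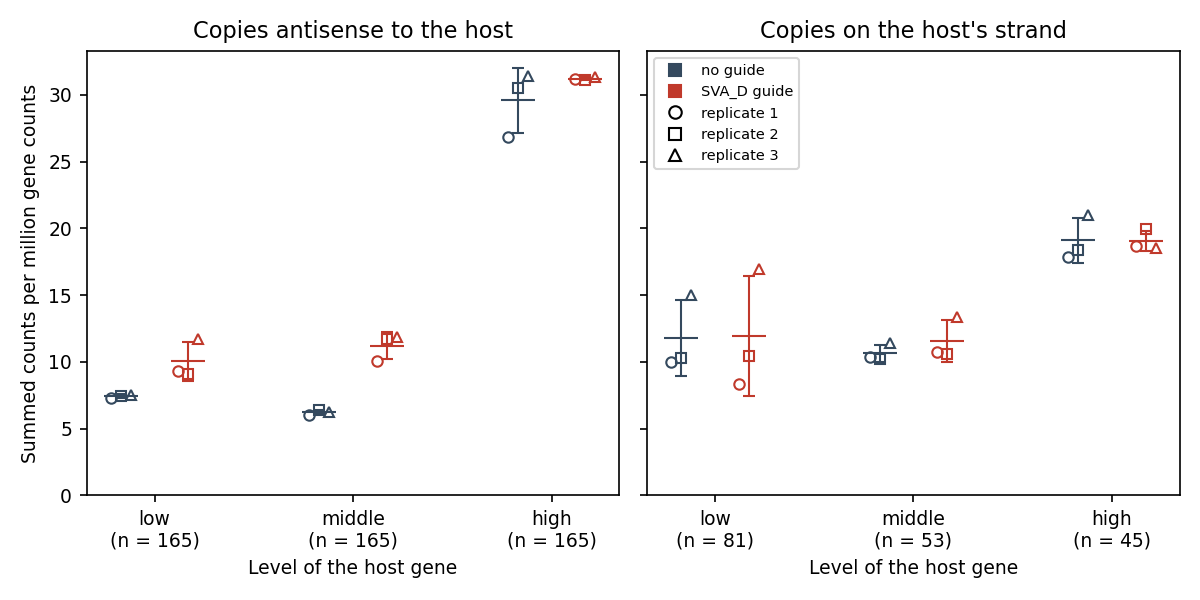
Summed CPM per library for copies in hosts of low, middle and high level, antisense copies on the left and same-strand copies on the right, with the mean and SD of 3 libraries per group. The guide and no-guide libraries separate for antisense copies in low and middle hosts and overlap in high hosts and in all 3 groups of same-strand copies.

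Copies in hosts of higher level had counts more often. That level leaves out pairs shared by overlapping genes and can include pairs from the copy itself, so it is not a pure measure of host activity. A count in any library was present at 66.7% of antisense copies in low hosts, 80.6% in middle hosts and 88.5% in high hosts. The level of antisense copies without the guide was 0.0365 CPM per kb in low hosts, 0.0270 in middle hosts and 0.135 in high hosts, a group that includes SVA_D_dup1360. Same-strand copies without the guide were higher, at 0.153, 0.183 and 0.446 CPM per kb in low, middle and high hosts. An equal rise in CPM per kb would thus give a smaller log2 difference in same-strand copies. Across the 495 copies the copy's CPM per kb and the host's CPM per kb had a Spearman correlation of 0.39, and 0.37 over the 362 copies of 1000 bases or more. For the 179 same-strand copies it was 0.45. These are descriptions across copies that share libraries, depth and multi-mapping reads. Since counting ignored strand, a contribution of intronic host RNA to a copy's counts cannot be told apart from RNA started in the copy.

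Host bodies were also cut into 3 equal parts, and the log2 differences from the host's start to its end were 0.24, 0.36 and 0.26. The 181 copies in the part nearest the host's start were at 21.98 ± 0.542 CPM with the guide against 18.7 ± 2.0 CPM without it. The 179 in the middle part were at 16.3 ± 1.65 and 12.8 ± 1.42 CPM, and the 135 in the last part at 14.1 ± 0.998 and 11.8 ± 0.631 CPM (SD, n = 3 each). The groups did not overlap in any of the 3 parts. Without the called copies the log2 differences were 0.14, 0.10 and 0.26, and only the last part, which holds no called copy, still had no overlap.

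Host genes did not pass the test in either direction. Of the 455 hosts, 389 were tested, and 0 were called in edgeR, DESeq2 or limma-voom, as were 0% of all 13007 tested genes in edgeR. At an unadjusted p under 0.05, 2 of the 389 tested hosts were higher and 0 lower in each of the 3 tools. Of all 13007 tested genes, 19 (0.146%) were higher and 4 (0.0308%) lower in edgeR. These numbers were 22 (0.169%) and 8 (0.0615%) in DESeq2, and 20 (0.154%) and 7 (0.0538%) in limma-voom. With replicate 3 as a covariate in edgeR, 6 of the 389 hosts were higher and 12 lower, again with 0 called. Of all 13007 genes, 347 (2.67%) were higher and 140 (1.08%) lower in that fit. Hosts were thus more often lower there, and all genes more often higher. The median log2 fold change of the hosts was -0.032 (145 above 0 and 244 below), beside 0.0025 for all tested genes, and for the 131 tested hosts of same-strand copies it was -0.036. By host level, the medians were -0.051 for low, -0.031 for middle and -0.027 for high hosts. For the hosts whose antisense copies had no count the median was -0.033.

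RAP1A was 1 of the 2 hosts with an unadjusted p under 0.05. It had 81, 73 and 86 counts with the guide and 51, 37 and 38 without it, which is 4.15 ± 0.257 against 2.06 ± 0.246 CPM (SD, n = 3 each) with no overlap. The log2 fold change was 0.96 ± 0.29 (SE), and the edgeR adjusted p was 1.0. The copy's counts were 22.2, 16.4 and 40.7 per 100 host counts with the guide and 3.92, 0 and 15.8 without it. Subtracting the copy's counts from the host's counts in each library changed the log2 difference of RAP1A from 1.01 to 0.66. Because the gene count takes pairs from introns and the copy count also takes pairs that align to several places, their true overlap is unknown. It lies somewhere between none and all of the copy's counts. LINC01160, on chromosome 1 from 111599655 to 111608723, lies inside RAP1A, and gene counts ignored strand. RNA of LINC01160 outside the copy can thus also enter the RAP1A count. The remaining 0.66 may therefore not be host RNA alone, and the share of LINC01160 was not tested.

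The other host was OR6J1, an olfactory receptor gene, which was named after its values were seen. It had 26, 14 and 59 counts with the guide and 11, 9 and 15 without it (log2 fold change 1.47 ± 0.49, SE, edgeR adjusted p = 1.0), and lay at 0.846 to 2.85 CPM against 0.486 to 0.702 CPM, with no overlap. Its antisense copy SVA_D_dup1056, on chromosome 14 from 22636439 to 22637530, had 14, 7 and 18 counts against 5, 6 and 6. The copy's counts came to 30.5 to 53.8 per 100 host counts with the guide and 40.0 to 66.7 without it, and these ranges overlapped. Subtracting them from the host's counts changed the log2 difference of OR6J1 from 1.53 to 1.79, a rise where RAP1A had a fall. Without guide replicate 3 the log2 fold change of OR6J1 was 0.90.

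The hosts of both copies with the largest changes did not differ beyond their SE. UBTD1 had 253, 177 and 497 counts with the guide and 229, 182 and 534 without it (log2 fold change 0.014 ± 0.38, SE), although its copy reached 17.0, 9.04 and 9.46 counts per 100 host counts with the guide against 0, 0 and 0.187 without it. ANKRD11 had 4094, 2596 and 3018 counts against 3252, 2625 and 3087 (0.15 ± 0.17, SE), and its copy had 0.806, 1.19 and 0.696 counts per 100 host counts with the guide against 0.031, 0.038 and 0 without it. With the copy's counts subtracted, the log2 difference went from 0.039 to -0.13 for UBTD1 and from 0.18 to 0.17 for ANKRD11. In UBTD1, replicate 3 stood above replicates 1 and 2 in both groups.

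**Figure D4:**
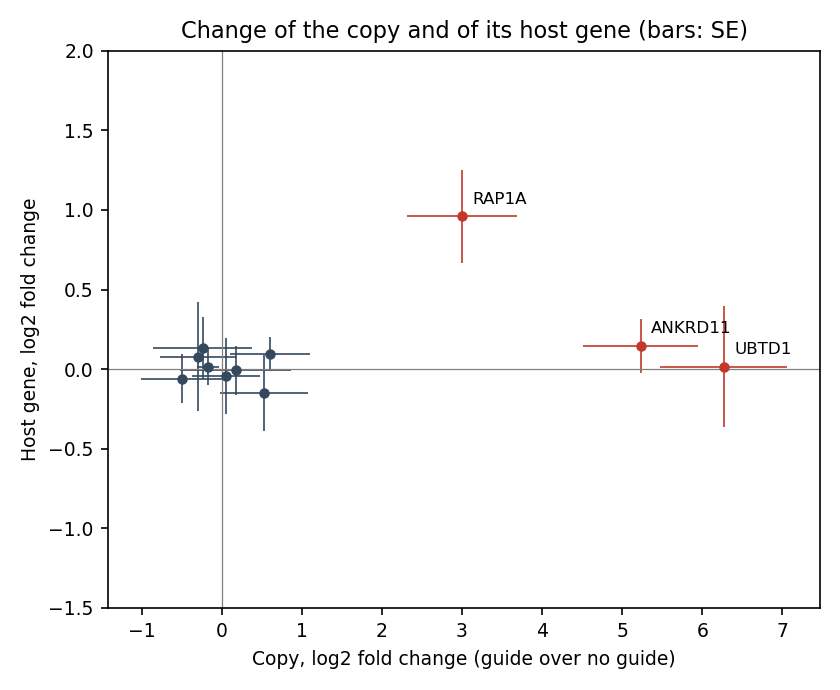
Log2 fold change of 11 antisense copies (horizontal) and of their host genes (vertical), guide over no guide. SE bars were derived from the F statistics of the edgeR fits on the copy and gene tables. Red points are the called copies, whose hosts are named. The hosts UBTD1 and ANKRD11 lie near 0 (0.014 and 0.15) while their copies lie at 6.27 and 5.23, and RAP1A lies at 0.96.

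Among the hosts of abundant copies, ZNF584 was at 39.0 ± 4.37 CPM with the guide against 37.5 ± 2.84 CPM without (SD, n = 3 each), and its copy had 24.3 to 31.5 counts per 100 host counts over all 6 libraries. MTG1 was at 1.84 ± 0.264 and 1.69 ± 0.246 CPM, and its copy had 62.5 to 178 counts per 100 host counts. Pairs that overlap 2 genes enter neither gene's count, and this copy lies in 2 genes. CRELD1, LONP1, CENPA, RBM6, EIF3H and NEK1 had log2 fold changes between -0.15 ± 0.24 for EIF3H and 0.13 ± 0.20 for LONP1 (SE). GNAQ with 4 antisense copies and RC3H2 and RBL1 with 3 had -0.11 ± 0.22, 0.023 ± 0.17 and 0.082 ± 0.37 (SE). All of these lay within 1 SE of 0, and the copies in them had fewer than 7 counts per 100 host counts.

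The genes that repress SVA elements did not pass either. Of 25 genes on the list of SVA repressors and chromatin silencing factors, 25 were tested and 0 were called in edgeR, nor did any reach an unadjusted p under 0.05, with 11 above 0, 14 below and a median log2 fold change of -0.0059, beside 0.0025 for all tested genes. ZNF91 was at 6.81 ± 1.26 CPM with the guide against 7.35 ± 2.80 CPM without. ZNF611 was at 10.2 ± 3.31 and 10.1 ± 0.476 CPM, and TRIM28 at 505 ± 55.5 and 468 ± 73.4 CPM (SD, n = 3 each). Each of the 3 overlapped between groups.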

How the data were processed

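Total RNA was sequenced as read pairs. Per the submitters' processing notes, FastQC 0.11.8, STAR 2.7.0e and featureCounts 2.0.0 were used with GRCh38. The deposited values are raw counts. Per the file headers, the gene counts cover whole bodies of Ensembl 97 protein-coding genes, without strand, from pairs that align once, whereas SVA_D copy counts include multi-mapping pairs at each alignment, so similar copies share counts. The members, splits and gene lists were chosen with earlier results of these data known.

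Levels are raw counts per 1000000 gene counts (CPM). Tests used edgeR 4.0.16 (R 4.3.3, quasi-likelihood, filterByExpr with minimum count 10, TMM from the gene table as library size, no batch term, Benjamini-Hochberg over all tested copies or genes). DESeq2 1.42.0 and limma-voom (limma 3.58.1) were alternatives. The SE of an edgeR log2 fold change was taken as its absolute value divided by the square root of the F statistic. For SVA_D_dup856 and SVA_D_dup1191 this SE is narrow beside the binomial interval of the counts. Summed values were compared by two-sided exact permutation tests, and ratios of counts carry exact 95% binomial intervals, which cover counting error only, since there are no molecular identifiers. The fits were also run on simulated counts with a fixed dispersion, no replicate 3 difference and no shared reads. Only features with higher mean counts were changed in them. That run does not assess calls on copies with few or shared counts. The printed sequence came from GENCODE release 29 transcripts. Some sequences are not reported here. The copies described are those called, the 8 with the highest mean level and up to 4 on each side with the smallest p among those not called (these sets overlap), plus their hosts, 3 hosts with the most copies (ties at 3 copies broken by the shorter gene), and ZNF91, ZNF611 and TRIM28. The copies in CCT3, EIF4EBP2, NDUFA13 and OR6J1 fall outside this rule and were chosen after their values were seen.

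Replicate numbers are shared by both groups in the labels, and the deviations of same-numbered libraries correlated at 0.51, 0.60 and 0.84 over 13007 genes. The numbers were taken as pairs only for differences of same-numbered libraries, the sign-flip tests and the replicate block. The main fits and permutation tests did not use them. Guide replicate 1 correlated slightly better with no-guide replicate 2 (0.57), and guide replicate 2 about equally with no-guide replicates 1 and 2 (0.60 each). Replicate 3 of each group correlated negatively with replicates 1 and 2 of the other. These values set replicate 3 apart but do not pair replicates 1 and 2.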

Additional observations from a re-analysis of the deposited data

How the results depend on the processing

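The antisense sum, its comparisons with the other classes and the counts of called copies and hosts kept their direction and their side of the threshold under the alternatives, although no exact test could pass with 3 against 3 libraries. The log2 difference of the antisense sum ranged from 0.23 to 0.31 when 1 library was left out, and was 0.29 for copies of at least 1000 bases, 0.41 without the 5 copies of each class with the most counts, 0.25 with 50% of the copy required inside the gene, 0.24 with TMM-scaled gene totals and 0.0029 with the SVA_D total as library size. With the replicate numbers as a block (replicate block), the log2 difference was 0.28 (exact sign-flip p = 0.25), 3 copies were called higher, and no call on a copy or host changed. The difference from same-strand copies ran from 0.18 to 0.32 and that from copies outside genes from -0.27 to -0.018 with 1 library left out; the latter rests on guide replicate 3. The count of called copies was 2 to 3 over these fits, losing SVA_D_dup76 without guide replicate 3. With 1 library left out, the log2 fold changes of the called copies ran from 5.80 to 8.07 (SVA_D_dup856), 4.62 to 5.69 (SVA_D_dup1191) and 2.54 to 4.18 (SVA_D_dup76), and that of SVA_D_dup676 from 0.18 to 1.43. Chosen after seeing the data were the sums without the called copies and the comparison of middle with high hosts (0.72 to 0.83 with 1 library left out).

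Some values within 1 SE of 0 changed sign, and not all of them were small. In the main fit SVA_D_dup159 was at -0.50 ± 0.51 and SVA_D_dup870 at -0.29 ± 0.48 (log2 fold change, SE). SVA_D_dup1296 was at 0.23 with limma-voom, SVA_D_dup159 at 0.097 in replicates 1 and 2 only (where SVA_D_dup1296 was at -0.57), CRELD1 at 0.022 and NEK1 at 0.12 in replicates 1 and 2 only, NEK1 at 0.022 with gene totals without TMM, and RC3H2 at -0.0022 with limma-voom and -0.00050 with the replicate block; the cause was not tested. With 1 library left out the log2 fold changes ran from -0.89 to 0.085 for SVA_D_dup870, -0.16 to 0.37 for SVA_D_dup259, -0.73 to 0.52 for SVA_D_dup1296, -0.79 to 0.18 for SVA_D_dup159 and -0.36 to 0.64 for SVA_D_dup402. For hosts they ran from -0.36 to 0.46 (UBTD1), -0.022 to 0.28 (ANKRD11), -0.074 to 0.071 (ZNF584), -0.10 to 0.24 (MTG1), -0.23 to 0.17 (CRELD1), -0.20 to 0.052 (CENPA), -0.34 to 0.017 (EIF3H), -0.14 to 0.13 (NEK1), -0.27 to 0.098 (GNAQ), -0.13 to 0.18 (RC3H2) and -0.20 to 0.40 (RBL1). Copy totals of 2608 to 4553 counts per library limit what can be tested to 14 antisense copies.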
